A study of Mus musculus with 54 samples.

Results

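Microglia (MG) are the resident macrophages of the brain parenchyma, and systemic lipopolysaccharide (LPS), an endotoxin of Gram-negative bacteria, is a standard way to provoke an acute innate response in them. The libraries described here are the 6 MG libraries of Ccr2 KO mice that were never depleted of macrophages, out of 54 libraries in the series. They comprise 3 libraries of mice treated with vehicle (CTL) and later with LPS (mice V1m, V2m and V4f) and 3 of untreated mice injected with PBS (mice 1m, 3m and 5f). They were chosen by the sorted population and mouse given in the library names.

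All 6 mice carried the Ccr2 knockout (B6.129S4-Ccr2tm1Ifc/J), so the controls shared the deletion, which is constitutive and leaves few circulating monocytes that could enter the brain. CTL mice had received the vehicle of BLZ945, an inhibitor of the CSF1 receptor, by gavage and were injected with LPS 8 weeks after its end, and MG were sorted 12 h later from brains freed of the choroid plexuses. The PBS controls had not been gavaged, so that LPS and the earlier vehicle gavage cannot be told apart in this comparison. Each library came from its own mouse, and the age at sorting is not part of the labels. WT MG and Ccr2 KO sdCAMs (macrophages of the brain's borders, sorted from below the dura) under the same conditions, and Ccr2 KO MG that had repopulated after BLZ945 before LPS, serve as comparisons. The question put to these libraries was how MG that cannot be joined by CCR2-dependent monocytes respond to LPS.

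LPS is bound by CD14 and the TLR4-MD-2 complex, whose adaptors MyD88 and TRIF lead to NF-kappaB, AP-1 and interferon regulatory factors. The first wave of induced genes encodes cytokines, chemokines and inhibitors of the same pathway, and secreted type I interferon then induces interferon-stimulated genes through STAT and IRF transcription factors. In a living animal, glucocorticoids released during endotoxaemia reach the brain as well and induce a gene set of their own. MG are also known to lower the genes of their homeostatic signature when they are exposed to inflammatory stimuli.

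The titles of the 3 LPS libraries named the other sorted population, whereas their cell type label and library name gave MG, and the counts were checked against the markers of both. The 8 sdCAM markers together reached 8.67 to 34.1 CPM (counts relative to the library total, here without TMM) in untreated and 12.3 to 16.98 CPM in LPS MG, against 18763 to 19797 CPM and 7193 to 7803 CPM in the Ccr2 KO sdCAM libraries. The libraries thus carried the marker levels of MG. Total counts were 8305204 to 10781114 in untreated and 9935083 to 11330781 in LPS MG, and 13928 to 14897 genes were detected. Genes encoding ribosomal proteins took 0.472 to 0.499% of counts in untreated and 0.763 to 0.920% in LPS MG. In 1 untreated library (mouse 1m) the 10 neutrophil markers summed to 86.3 CPM and the 5 markers of choroid plexus and ependyma to 79.7 CPM, against at most 0.241 CPM and 2.89 CPM in the other two. In 8 of the 9 Ccr2 KO MG libraries Xist and Y-linked transcripts matched the letter in the mouse name, whereas the library of mouse 3m carried Xist transcripts. Ccr2 itself was at 5.96, 5.10 and 7.10 CPM in untreated Ccr2 KO MG and 3.87, 7.64 and 10.6 CPM in untreated WT MG (exact permutation test, two-sided, p = 0.6, where 3 against 3 cannot go below 0.1). The transcript level therefore does not check the genotype of MG.

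Of 11558 genes tested, 2243 (19.4%) passed an adjusted p under 0.05 with a log2 fold change over 1 in size, which is the meaning of called, rose and fell below. Of these, 1215 genes (10.5% of those tested) rose after LPS and 1028 (8.89%) fell. Which direction held more calls depended on the scaling, with 1052 higher and 1186 lower under upper quartile scaling and 1329 and 937 with library totals alone. Without the untreated library of mouse 1m, the one with markers of other cells, 2143 genes were called. More than 8-fold changes were seen for 295 of the risen and 148 of the fallen genes. A gene near 0 in 1 group entered the test only through groups where it was higher. Shares and medians of the lists below therefore lean to genes that changed. The 3 libraries of a group did not overlap with those of the other for 6183 genes (53.5%), and the median log2 fold change over all genes tested was 0.0029. Levels below are CPM after TMM scaling in the order of mice 1m, 3m and 5f and of V1m, V2m and V4f, and fold changes are given on the log2 scale with their SE. In RNA of sorted cells, more of a transcript per cell and more cells that carry it cannot be told apart.

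**Figure D1:**
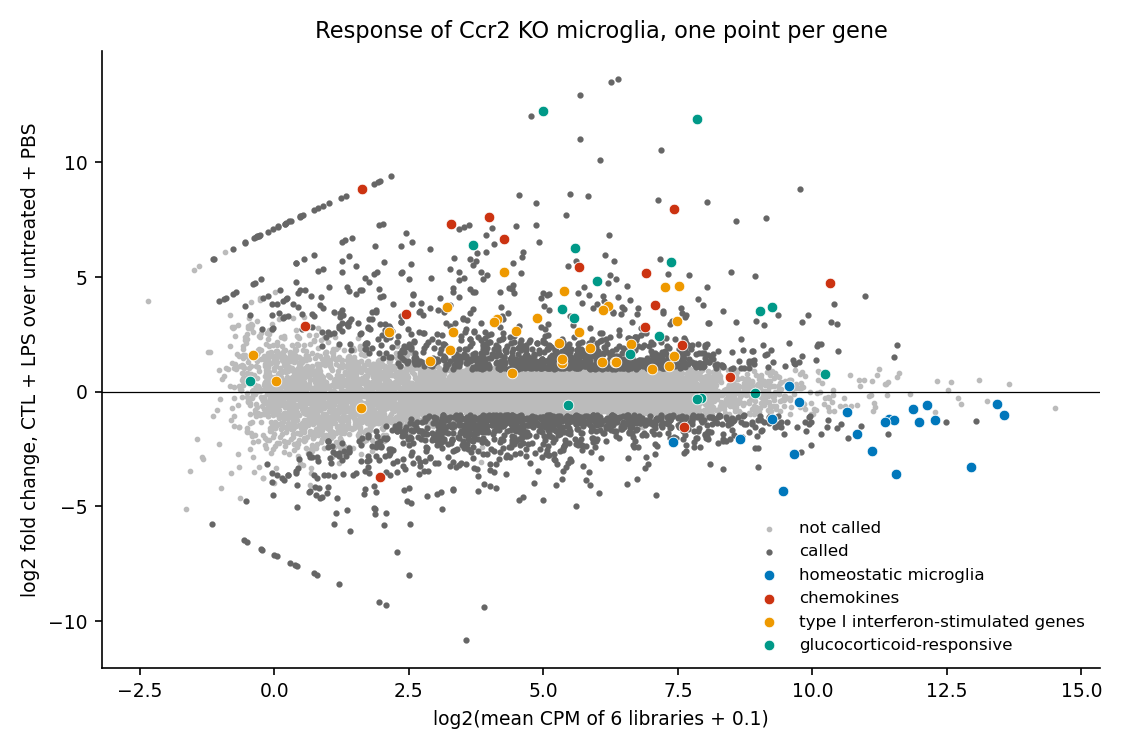
Each point is 1 of the 11558 genes tested, with its mean level over the 6 libraries on the x axis (log2 scale) and its log2 fold change after LPS on the y axis. Homeostatic genes lie at the right and mostly below 0, and chemokines and interferon-stimulated genes mostly above 0. The slanted rows at the left are genes with no count in 1 of the groups, whose fitted fold change depends on the prior count.

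The homeostatic signature of MG fell. Of 21 genes tested in the list, 15 fell and none rose, against 8.89% of all genes that fell, and the median log2 fold change of the list was -1.23. P2ry12, the ADP receptor that directs microglial processes, was at 14809.6, 14246 and 14118 CPM in untreated and 1459, 1694 and 1278 CPM in LPS MG. The groups were far apart, and the log2 fold change was -3.28 ± 0.17 (adjusted p = 1.42e-08). Slc2a5, the fructose transporter GLUT5, fell most within the list, from 1214, 1381 and 1405 CPM to 68.8, 73.98 and 55.6 CPM (-4.33 ± 0.45). Gpr34, a lysophosphatidylserine receptor, went from 5539, 5375 and 5667 CPM to 417, 517 and 436 CPM (-3.60 ± 0.28). The transcription factor Sall1, which maintains microglial identity, fell from 633, 618 and 698 CPM to 134, 183 and 143 CPM (-2.08 ± 0.24). Adgrg1, Olfml3, Crybb1, Siglech, Tmem119, Tgfbr1, Selplg, Cx3cr1, Mef2c and P2ry13 were also among the fallen genes. The CSF1 receptor gene Csf1r, on which MG depend for survival, had a log2 fold change of -0.51 ± 0.13, under the limit of 1, and Mertk, a receptor for dying cells, of -0.45 ± 0.15. Cd33 did not pass the test (0.27 ± 0.17, adjusted p = 0.241).

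The lower calls with the smallest p included genes outside this signature. Ighm, the constant part of the immunoglobulin mu heavy chain, was at 655, 528 and 595 CPM in untreated and 66.6, 58.6 and 45.9 CPM in LPS MG (-3.38 ± 0.21, adjusted p = 8.84e-08). Tnfrsf17, which encodes the receptor BCMA known from plasma cells, was at 35.6, 24.5 and 28.5 CPM and 0.0862, 0 and 0 CPM, so that 1 count was left in the 3 LPS libraries, and the ratio of LPS to untreated was 0.00107 (exact binomial 95% interval 2.69e-05 to 0.00595). Cd79b, a chain of the B cell receptor, was at 42.8, 34.6 and 48.8 CPM and 22.6, 22.1 and 21.1 CPM without overlap (-0.94 ± 0.30, adjusted p = 0.0236), under the limit of 1. The other 11 lymphocyte markers together reached at most 0.928 CPM in any of the 6 libraries. Selenop, the plasma selenium carrier, fell from 2630.5, 2659 and 2504 CPM to 687, 682 and 578 CPM (-2.001 ± 0.12). The lysosomal enzymes Hexa (-1.71 ± 0.11) and Arsb (-2.14 ± 0.15), the inhibitory receptor Cd300a (-2.20 ± 0.14), and Plxdc2 (-2.64 ± 0.17), Fam110a (-3.26 ± 0.21) and Khdrbs3 (-4.08 ± 0.28) completed the 10 genes.

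The 10 higher calls with the smallest p were led by Cd244a, an immune receptor of the SLAM family, with 2.54, 3.14 and 3.19 CPM in untreated and 145, 150.3 and 170.05 CPM in LPS MG (5.71 ± 0.19, adjusted p = 5.02e-10). Within each group the 3 libraries lay close together, which a choice by the smallest p favours. Gpr65, a receptor that senses extracellular protons, rose from 7.39, 8.67 and 10.4 CPM to 297, 277 and 351 CPM (5.13 ± 0.19). C5ar1, the receptor of the complement fragment C5a, rose from 318, 328 and 324 CPM to 2395, 2438 and 2609 CPM (2.94 ± 0.12). Il1r2, the decoy receptor of interleukin-1, had 3 counts in all untreated libraries together and was at 433, 462 and 492 CPM after LPS, a ratio of 4259 (exact binomial 95% interval 1457 to 20655). The neighbouring membrane protein genes Ms4a6b (3.05 ± 0.13), Ms4a6c (5.03 ± 0.18) and Ms4a6d (4.18 ± 0.17) rose together, although reads of such paralogs can be shared. Fkbp5, Ifitm3 and Ccl12 were the other genes of this group and are described with their lists.

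**Figure D2:**
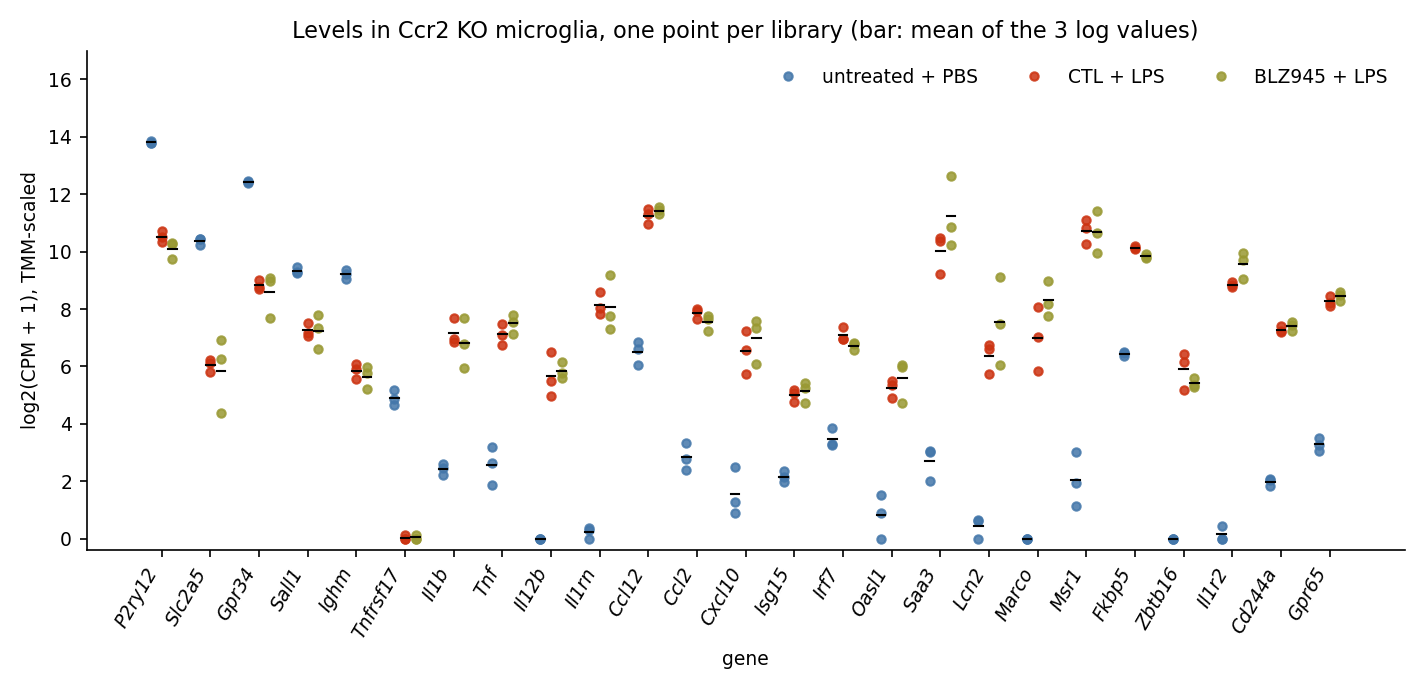
Levels of 25 named genes, given as log2(CPM + 1) after TMM scaling on the y axis, with 1 point per library and the mean of the 3 log values as a bar. Untreated and CTL + LPS libraries do not overlap for any gene shown, and BLZ945 + LPS libraries lie near the CTL + LPS libraries. No overlap was a condition for naming the calls with the smallest p, and it held for 53.5% of all genes tested.

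Cytokine genes did not respond as a block. Of 18 tested, 7 rose and 3 fell, against 10.5% and 8.89% of all genes tested, and the median log2 fold change was 0.69. Il1b, the precursor of interleukin-1beta, rose from 4.52, 3.62 and 5.03 CPM to 204, 124 and 113 CPM (5.07 ± 0.43, adjusted p = 1.17e-06). Its antagonist Il1rn was at 0.221, 0.286 and 0 CPM and then at 260.3, 227 and 381 CPM, a ratio of 1597 (exact binomial 95% interval 684 to 4921). Tnf, the gene of tumour necrosis factor, rose from 8.16, 2.67 and 5.15 CPM to 178, 137 and 107 CPM (4.73 ± 0.34). Il12b, the p40 subunit of interleukin-12 and interleukin-23, had no count in the untreated libraries and was at 88.97, 44.3 and 30.6 CPM after LPS, at least 166-fold higher when 3 counts per library are taken as the floor. Among the genes that rose were also the growth factor Csf1 (1.67 ± 0.18), the decoy Il18bp (2.74 ± 0.34) and Tnfsf9 (2.61 ± 0.28). Il6 was at 19.2, 20.6 and 17.8 CPM and 31.7, 17.96 and 34.3 CPM, with overlapping groups and an adjusted p of 0.33. Il1a stayed under the limit of 1 (0.66 ± 0.22, adjusted p = 0.0285). Il15 (-1.68 ± 0.37), Il16 (-1.13 ± 0.17) and Tgfb1, the cytokine that sustains microglial identity (-1.56 ± 0.13), fell.

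Chemokines, which attract leukocytes, mostly rose. Of 16 genes tested, 13 rose and 2 fell, against 10.5% and 8.89% of all genes tested. The median log2 fold change was 4.25, or 3.98 with Ccl22 set at its lower bound. Ccl12, a ligand of CCR2, rose from 113, 65.9 and 97.3 CPM to 2875, 2009 and 2514 CPM (4.74 ± 0.21, adjusted p = 4.14e-09). Ccl2, the main CCR2 ligand, rose from 9.04, 4.29 and 5.89 CPM to 256, 201 and 243 CPM (5.19 ± 0.26), and Ccl7, which also binds CCR2, from 0.551, 0.286 and 0.245 CPM to 49.9, 23.5 and 40.8 CPM (6.67 ± 0.54). These ligands thus rose in mice that lack the receptor. Ccl5, a chemokine for T cells and monocytes, was at 2.10, 1.33 and 0.614 CPM and 312, 219 and 493 CPM (7.95 ± 0.48). The CXCR3 ligands Cxcl10 (5.46 ± 0.58) and Cxcl9 (3.39 ± 0.74) rose with it, as did Ccl3 (3.77 ± 0.34) and Ccl4 (2.82 ± 0.28). Cxcl2, a neutrophil attractant, rose from 3 counts in all to 23.3, 21.9 and 12.3 CPM, a ratio of 179 (exact binomial 95% interval 60.8 to 868). Ccl22 had no count before and was at 6.47, 1.66 and 9.92 CPM after LPS, at least 18.3-fold higher. Cxcl13 (7.64 ± 0.83), Cxcl14 (2.89 ± 0.72) and Cxcl16 (2.05 ± 0.17) also rose. Ccl6 fell from 327, 242 and 312 CPM to 106, 85.9 and 107 CPM (-1.56 ± 0.16) and Ccl24 from 6.51, 5.81 and 8.96 CPM to 0.603, 0.195 and 0.785 CPM (-3.71 ± 0.72). Ccl9 did not pass the test (0.65 ± 0.29, adjusted p = 0.104).

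Of 30 receptors for such ligands tested, 10 rose and 2 fell, against 10.5% and 8.89% of all genes tested. The median log2 fold change was 0.42. Il2rg, the shared gamma chain of interleukin receptors, rose from 12.7, 10.95 and 10.6 CPM to 185, 151 and 216 CPM (4.01 ± 0.20), and Il15ra from 10.6, 5.90 and 10.7 CPM to 176, 139 and 159 CPM (4.13 ± 0.27). Fpr1, a receptor for formylated bacterial peptides, rose from 3 counts in all to 148, 76.9 and 174 CPM, a ratio of 1233 (exact binomial 95% interval 422 to 5983). Its relative Fpr2 (5.65 ± 0.74), Ccr1 (5.15 ± 0.92), Il1r1 (1.74 ± 0.43), Il4ra (1.83 ± 0.22) and Csf2rb (2.07 ± 0.14) rose as well. Ccr7, which guides cells to lymph nodes, had no count in untreated libraries and was at 16.6, 1.27 and 5.11 CPM after LPS, so that mouse V1m held most of it and the fold was at least 23.3. Il6st, the signalling chain gp130 (-1.37 ± 0.22), and Csf3r, the G-CSF receptor (-1.09 ± 0.19), fell. Ifnar1 (-0.16 ± 0.14) and Ifngr1 (0.41 ± 0.12) were below the limit of 1.

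Of 27 genes of LPS sensing and Toll-like receptor signalling tested, 5 rose and 3 fell, against 19.4% called over all genes tested. The median was 0.45. Cd14, which hands LPS to the receptor, rose from 670.4, 646 and 626 CPM to 2775, 1635 and 2189 CPM (1.76 ± 0.26, adjusted p = 1.20e-04). Ly96, which encodes MD-2, fell from 58.2, 65.2 and 66.9 CPM to 27.6, 27.6 and 30.5 CPM (-1.15 ± 0.17). Tlr4 itself was at 201, 271 and 232 CPM and 123, 159 and 116 CPM, a log2 fold change of -0.82 ± 0.26 that stayed under the limit of 1 although the groups did not overlap. Cd180, a TLR4 relative that restrains LPS signalling, fell from 229, 147 and 129 CPM to 23.4, 26.4 and 18.9 CPM (-2.88 ± 0.24), and Tlr5, the flagellin receptor, fell too (-1.23 ± 0.28). Tlr2, a receptor of bacterial lipoproteins, rose from 282, 297 and 261 CPM to 2766, 1599.6 and 2582 CPM (3.05 ± 0.23). Tlr1 (1.49 ± 0.22), the RNA sensor Tlr7 (1.58 ± 0.18) and the inhibitory kinase Irak3 (2.18 ± 0.28) rose. Myd88 (0.77 ± 0.14), Ticam1 (0.45 ± 0.24) and Traf6 (0.51 ± 0.31) were under the limit.

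Several regulators that end NF-kappaB signalling rose. Of 23 genes tested in the list of NF-kappaB subunits and feedback regulators, 13 rose and 1 fell, with a median of 1.53. Over all genes tested 10.5% rose and 8.89% fell. Nfkbia, which encodes the inhibitor IkappaB-alpha, rose from 118, 89.1 and 106 CPM to 930.2, 861 and 884 CPM (3.09 ± 0.23, adjusted p = 3.31e-07). Tnfaip3, the ubiquitin-editing enzyme A20, rose from 86.9, 82.7 and 83.5 CPM to 356, 268 and 321 CPM (1.90 ± 0.24). Bcl3 (4.33 ± 0.30) and Nfkbiz (3.45 ± 0.38), both atypical IkappaB proteins, rose with them. Socs3, an inhibitor of cytokine receptor signalling, rose from 35.2, 24.95 and 41.4 CPM to 485, 472 and 448 CPM (3.79 ± 0.29), and Zc3h12a, the RNase regnase-1, rose too (1.88 ± 0.38). Of the subunits, Nfkb2 rose (1.53 ± 0.23), Nfkb1 fell from 214, 220.4 and 208 CPM to 86.6, 77.01 and 69.4 CPM (-1.46 ± 0.16), and Rela did not pass the test (0.029 ± 0.14, adjusted p = 0.9).

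Interferon-stimulated genes rose together. Of 32 tested, 26 rose and none fell, against 10.5% of all genes that rose, and the median log2 fold change was 2.10. Ifitm3, a membrane protein that blocks viral entry, rose from 18.6, 13.999 and 10.7 CPM to 314, 383 and 363 CPM (4.61 ± 0.20, adjusted p = 3.11e-09). Irf7, the transcription factor that amplifies interferon production, rose from 13.6, 8.57 and 8.96 CPM to 122, 165 and 124 CPM (3.73 ± 0.22). Isg15, a ubiquitin-like modifier, rose from 4.08, 2.95 and 3.44 CPM to 32.8, 35.3 and 26.3 CPM (3.17 ± 0.27). Ifi204 (4.58 ± 0.27), the nucleic acid sensor Zbp1 (4.40 ± 0.35) and Oasl1 (5.24 ± 0.58) had larger fold changes than Isg15. The transcription factor genes Stat2 (2.07 ± 0.23) and Irf9 (1.12 ± 0.13) rose as well. Ifit3 (0.81 ± 0.29) and Trim30a (0.98 ± 0.15) stayed under the limit of 1, and Mx2, Ifi44, Oas3 and Ifit3b did not pass the test. Mouse V2m held the highest level of the 3 LPS libraries for Irf7, Isg15 and Ifitm3. Among 18 interferon regulatory factors, STATs and their kinases, 6 rose and none fell, against 10.5% of all genes that rose. Irf1 (1.70 ± 0.29) and Stat3 (1.01 ± 0.16) were among the 6.

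The interferon response is set by the interferon-stimulated response element (ISRE), whose core was searched as GAAANNGAA, and NF-kappaB by kappaB sites, searched as GGNNNTTCC, on both strands of the 250 bases before the RefSeq start of each gene (assembly GRCm38.p6, matched by symbol). Windows of the last 150 bases are shown for the 2 genes with the smallest p in each of 3 lists that rose and held a match, because both motifs are known targets of these pathways, although a match is not shown to be a site in use. Capitals mark the motif matches, which may overlap.
Isg15: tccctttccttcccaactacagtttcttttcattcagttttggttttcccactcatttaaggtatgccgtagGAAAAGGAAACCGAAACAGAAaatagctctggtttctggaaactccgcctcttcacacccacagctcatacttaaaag
Bst2: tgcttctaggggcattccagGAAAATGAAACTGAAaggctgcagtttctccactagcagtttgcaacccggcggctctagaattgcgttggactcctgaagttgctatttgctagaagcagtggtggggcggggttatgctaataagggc
Bcl3: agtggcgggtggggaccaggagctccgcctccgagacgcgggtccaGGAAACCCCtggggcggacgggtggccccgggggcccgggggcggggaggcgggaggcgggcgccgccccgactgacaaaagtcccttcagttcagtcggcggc
Nfkbia: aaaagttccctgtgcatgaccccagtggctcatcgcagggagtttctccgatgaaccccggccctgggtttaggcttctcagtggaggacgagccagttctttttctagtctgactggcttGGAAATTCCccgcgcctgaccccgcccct
Ccl12: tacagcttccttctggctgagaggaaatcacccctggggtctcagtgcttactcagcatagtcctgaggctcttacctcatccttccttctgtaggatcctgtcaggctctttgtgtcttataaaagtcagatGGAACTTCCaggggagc
Cxcl2: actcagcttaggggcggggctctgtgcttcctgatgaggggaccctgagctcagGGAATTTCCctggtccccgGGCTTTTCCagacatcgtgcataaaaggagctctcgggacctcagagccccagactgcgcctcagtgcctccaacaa
The windows lie at chr4:156200819-156200968, - strand for Isg15, at chr8:71537473-71537622, - strand for Bst2, at chr7:19822756-19822905, - strand for Bcl3, at chr12:55492648-55492797, - strand for Nfkbia, at chr11:82101695-82101844, + strand for Ccl12 and at chr5:90903749-90903898, + strand for Cxcl2. Each window ends at the base before the annotated start of its gene. Isg15 and Bst2, which encodes the virus-tethering protein tetherin, carry overlapping ISRE cores, and the others carry 1 or 2 kappaB-like matches.

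Over all 9114 tested genes with a RefSeq promoter, 6.36% held an ISRE core, compared with 10.7% of the 948 such genes that rose and 5.20% of the 807 that fell. In the interferon list 11 of 22 promoters held it, which is 50%, and all 8 promoters of guanylate-binding proteins and related GTPases did. A kappaB-like match stood in 18.6% of all promoters, 21.2% of those of risen and 18.1% of those of fallen genes, and in 9 of 20 (45%) of the NF-kappaB regulators and 5 of 10 (50%) of the chemokines. The AP-1 motif TGANTCA was in 3.88% of all promoters, 5.70% of those of risen and 4.21% of those of fallen genes, and the heat shock motif GAANNTTC in 5.11%, 5.49% and 5.70%. None of the 15 homeostatic promoters held an ISRE core and 3 held a kappaB-like match. These counts describe letters in the windows and were not tested.

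**Figure D3:**
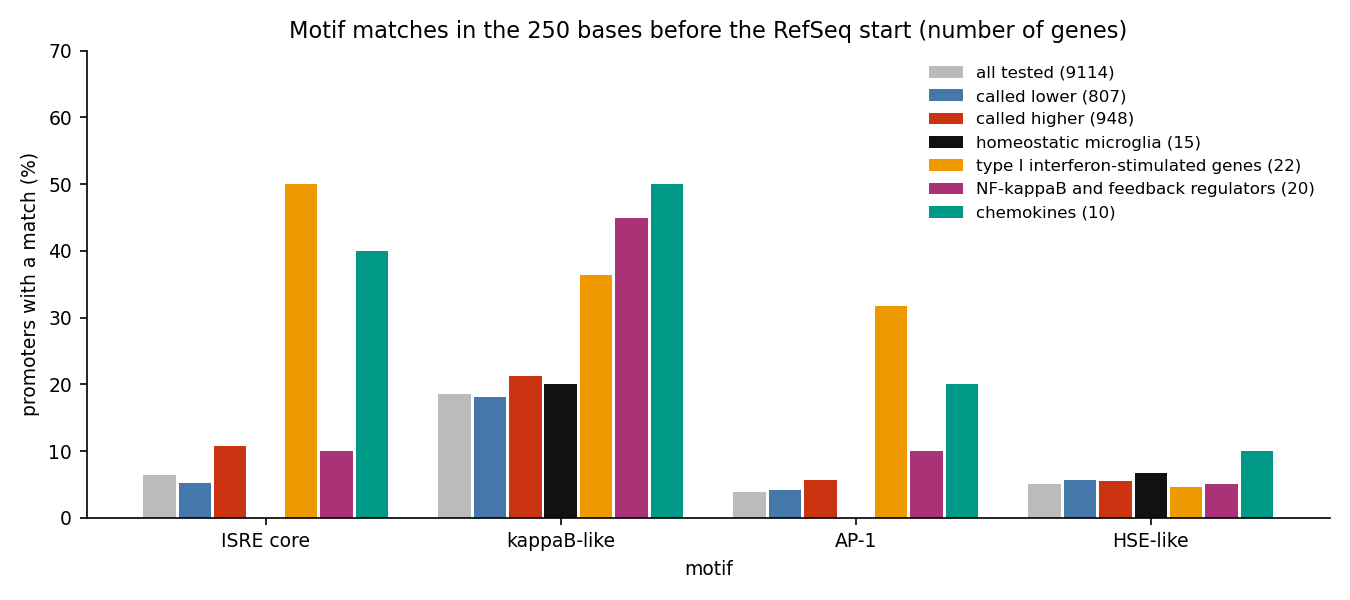
Share of promoters with a motif match (y axis, in %) for 4 motifs (x axis), for all tested genes, fallen and risen genes and 4 lists, with the number of promoters in brackets. The ISRE core is in 50% of interferon-stimulated promoters and 6.36% of all tested.

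Guanylate-binding proteins and immunity-related GTPases, which attack intracellular pathogens, rose in 8 of 13 cases with none that fell. Over all genes tested 10.5% rose and 8.89% fell. Gbp2 went from 8.82, 19.1 and 9.45 CPM to 169, 159 and 166 CPM (3.71 ± 0.40) and Irgm1 from 83.9, 76.8 and 81.4 CPM to 307, 459.9 and 229 CPM (2.04 ± 0.28). Iigp1 varied between the LPS libraries, with 16.8, 23.8 and 2.75 CPM (4.95 ± 0.91). In the MHC class I pathway 8 of 20 genes rose and none fell, with a median of 0.84. The transactivator Nlrc5 rose from 4.63, 5.62 and 3.93 CPM to 31.5, 36.9 and 14.4 CPM (2.54 ± 0.35), and the peptide transporter subunit Tap1 (1.64 ± 0.26) and H2-K1 (1.29 ± 0.16) rose, whereas B2m was at 0.48 ± 0.18 (adjusted p = 0.0537). Of 9 class II genes tested, Cd74, the invariant chain, rose from 102, 38.1 and 37.8 CPM to 444, 378 and 614 CPM (3.02 ± 0.33), and H2-Ob (-1.74 ± 0.22) and H2-DMb2 (-1.73 ± 0.46) fell. Cd74 and the class II genes H2-Aa and H2-Ab1 were highest among untreated libraries in mouse 1m, the library with neutrophil and choroid plexus markers, and the part of such cells in these values was not tested. H2-Aa was at 20.5, 1.81 and 1.72 CPM and 4.48, 4.002 and 4.91 CPM, and H2-Ab1 at 40.1, 12.5 and 12.4 CPM and 19.5 to 21.4 CPM. Reads of classical MHC genes can be shared between paralogs.

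Acute phase and antimicrobial genes rose from low levels. Of 17 listed, 10 passed the count filter and were tested. Of these 7 rose and none fell, against 10.5% and 8.89% of all genes tested, with a median log2 fold change of 4.92. Members near 0 in untreated libraries, such as Lcn2 and Hp, passed the filter only through libraries where they were higher. The share and the median therefore lean to genes that rose. Saa3, a serum amyloid A protein, went from 7.06, 7.24 and 3.07 CPM to 1419, 599.9 and 1328 CPM (7.57 ± 0.67, adjusted p = 1.82e-06), with mouse V2m lowest after LPS. Lcn2, the siderophore-binding lipocalin 2, went from 0.551, 0.571 and 0 CPM to 96.9, 51.8 and 107 CPM (7.71 ± 0.89), and ceruloplasmin, Cp, from 0.882, 4.19 and 0.368 CPM to 83.4, 47.4 and 127 CPM (5.48 ± 0.67). Of the other list members, Wfdc17 (4.34 ± 0.52) and C3, the central complement component (3.82 ± 0.57), rose too. Lyz2 (0.12 ± 0.15) and Lgals3 (-0.084 ± 0.69) did not pass the test.

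Of the uptake receptors, Marco and Msr1, both scavenger receptors, rose. Marco had no count in any untreated library and was at 131, 56.5 and 271 CPM after LPS, at least 465-fold higher, and Msr1 rose from 7.17, 2.86 and 1.23 CPM to 1823, 1222 and 2202 CPM (8.85 ± 0.55). The LPS libraries ranked alike for both, with mouse V2m lowest and V4f highest. Of 20 phagocytosis genes tested, these 2 rose and 5 fell, against 10.5% and 8.89% of all genes tested, and the median was -0.56. Trem2, a lipid receptor that sustains phagocytosis, fell from 1868, 1702 and 1834 CPM to 499, 569 and 425 CPM (-1.86 ± 0.18). Gas6, a bridging molecule between dying cells and their receptors, fell from 227, 217 and 246 CPM to 42.2, 46.3 and 47.1 CPM (-2.35 ± 0.33), and Sirpa, the receptor of the signal against uptake, fell too (-1.83 ± 0.15). Complement and Fc receptors rose in 6 of 19 cases and fell in none, among them Fcgr4 (4.57 ± 0.26), Fcgr2b (1.29 ± 0.12), C3ar1 (1.40 ± 0.12) and C4b (3.44 ± 0.43).

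**Figure D4:**
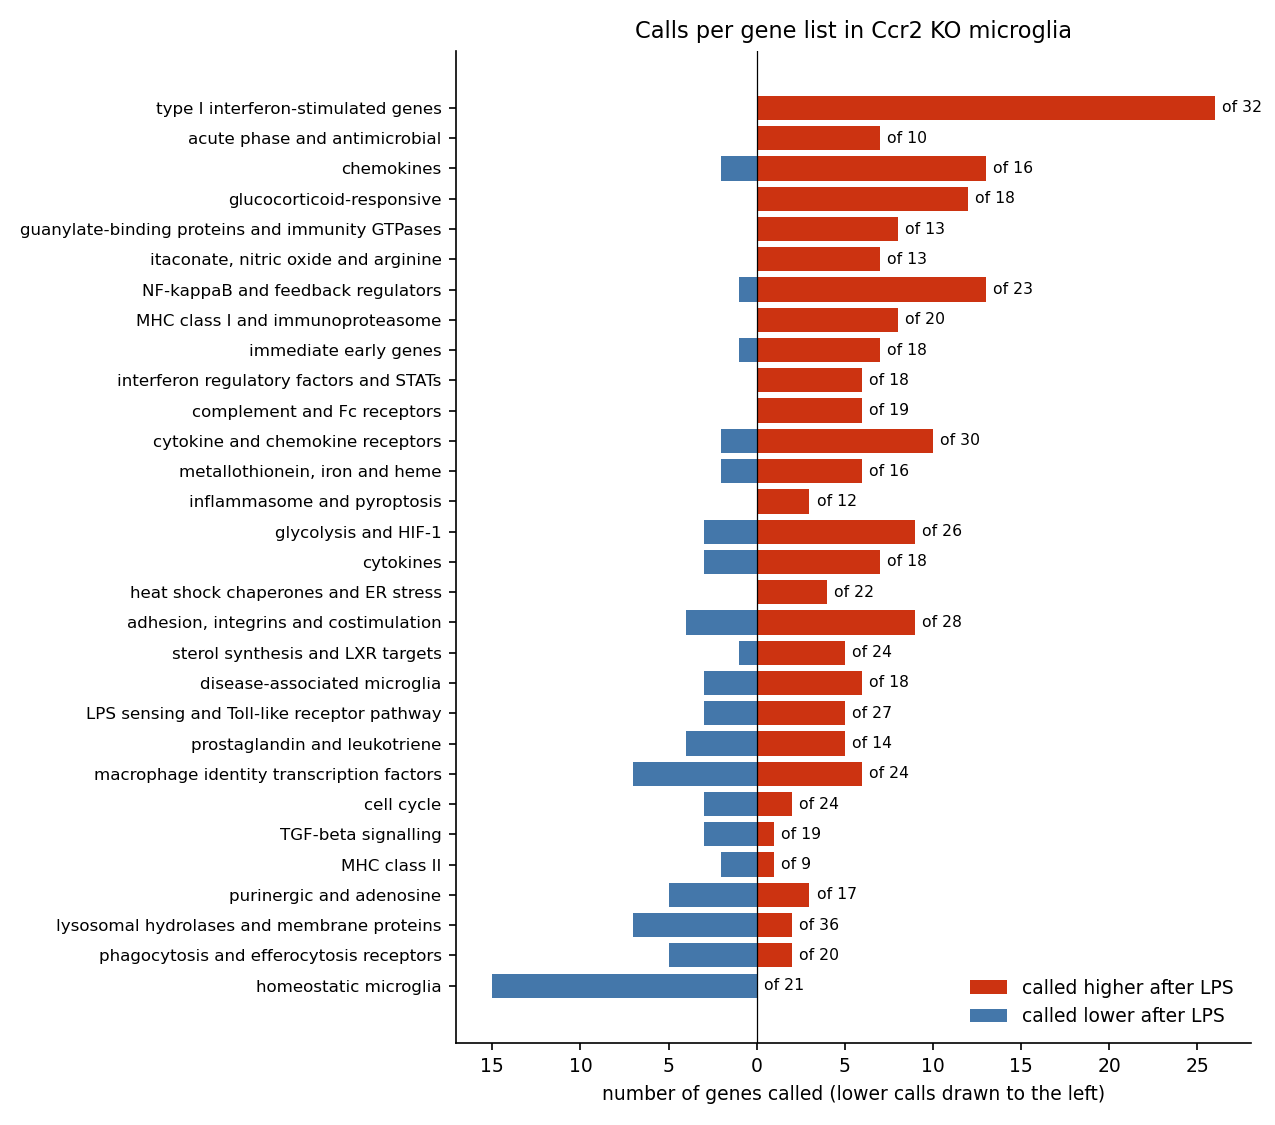
Number of genes that rose (to the right) or fell (to the left) after LPS in each of 30 gene lists, with the number tested beside each bar. Interferon-stimulated genes (26 of 32) stand at the top and homeostatic genes (15 of 21, all lower) at the bottom. Over all genes tested 10.5% rose and 8.89% fell.

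Genes of itaconate, nitric oxide and reactive oxygen metabolism rose in 7 of 13 cases and fell in none. Over all genes tested 10.5% rose and 8.89% fell. Acod1, the enzyme that makes itaconate, went from 1 count in all untreated libraries to 152, 64.1 and 92.2 CPM, a ratio of 2907 (exact binomial 95% interval 521 to 114838). Cybb, the catalytic subunit of the phagocyte NADPH oxidase, rose from 7.28, 4.57 and 3.44 CPM to 313, 188 and 348 CPM (5.79 ± 0.31), whereas its partners Cyba (0.28 ± 0.15) and Ncf1 (0.94 ± 0.12) stayed under the limit of 1. Mitochondrial superoxide dismutase, Sod2, rose from 38.9, 40.1 and 33.6 CPM to 310.3, 217 and 343 CPM (2.95 ± 0.34). In the list of glycolysis and HIF-1 genes 9 of 26 rose and 3 fell, against the same shares over all genes. The glucose transporters Slc2a3 (3.87 ± 0.23) and Slc2a1 (1.47 ± 0.20) and the regulator Pfkfb3 (2.29 ± 0.29) rose, and Hk3, a hexokinase, fell from 104, 109 and 96.3 CPM to 27.8, 22.3 and 23.8 CPM (-2.06 ± 0.26). Of the enzymes, Ldha (1.73 ± 0.24) and Pkm (1.42 ± 0.19) rose. Of inflammasome genes 3 of 12 rose and none fell, a share of calls not far from the 19.4% over all genes tested. They were Il1b, Casp4 (1.34 ± 0.26) and Naip2 (1.02 ± 0.18), while Nlrp3 was at 0.76 ± 0.15 and Casp1 at -0.048 ± 0.21.

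Genes known to respond to glucocorticoids rose as well. Of 18 tested, 12 rose and none fell, against 10.5% of all genes that rose, with a median log2 fold change of 3.38. Fkbp5, a co-chaperone that limits the glucocorticoid receptor, rose from 80.9, 89.3 and 86.8 CPM to 1082, 1186 and 1109 CPM (3.72 ± 0.13, adjusted p = 5.02e-10). Tsc22d3, which encodes the protein GILZ, rose from 61.97, 119 and 69.96 CPM to 797, 1025 and 1053 CPM (3.52 ± 0.24), and the clock gene Per1 from 8.71, 4.67 and 4.79 CPM to 67.6, 93.6 and 63.7 CPM (3.63 ± 0.28). Zbtb16, a transcription factor, had no count in untreated libraries and was at 69.9, 84.5 and 35.3 CPM after LPS, at least 193-fold higher. Klf9 (6.27 ± 0.53), Ddit4 (4.84 ± 0.37) and the phosphatase gene Dusp1 (5.65 ± 0.58) rose with them. Some members, such as Dusp1, Cdkn1a (3.24 ± 0.35) and the metallothionein genes Mt1 (2.44 ± 0.45) and Mt2 (6.40 ± 1.14), are known to answer other signals as well. No hormone was measured in these mice.

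Of 16 metallothionein, iron and heme genes 6 rose and 2 fell, against 10.5% and 8.89% of all genes tested. Fth1, ferritin heavy chain, rose from 1153, 1174 and 1228 CPM to 5315, 3971 and 5353 CPM (2.04 ± 0.19), and the importers Tfrc (2.69 ± 0.36), Slc11a2 (1.51 ± 0.23) and Slc39a14 (3.50 ± 0.32) rose. The exporter ferroportin, Slc40a1, fell from 451, 601 and 539.9 CPM to 78.1, 177 and 107 CPM (-2.14 ± 0.37), as did Ncoa4, the receptor for ferritin turnover (-1.08 ± 0.18). Of 18 immediate early genes 7 rose and 1 fell, against the same shares over all genes. Fos (4.35 ± 0.70), Ier2 (3.65 ± 0.33), Ier3 (4.20 ± 0.37) and Klf4 (6.55 ± 0.48) were higher, and Egr2 fell from 4.74, 6.48 and 9.57 CPM to 0, 0.976 and 0 CPM (-4.38 ± 1.22). Such genes can also be induced while tissue is digested, and the part of cell isolation was not tested.

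Enzymes and receptors of lipid mediators changed in both directions. Of 14 prostaglandin and leukotriene genes 5 rose and 4 fell, against 10.5% and 8.89% of all genes tested. Hpgd, which inactivates prostaglandins, fell from 928, 919 and 927 CPM to 85.3, 124 and 78.9 CPM (-3.27 ± 0.28, adjusted p = 1.17e-06), and thromboxane synthase, Tbxas1 (-1.90 ± 0.20), Ltc4s (-1.37 ± 0.31) and Hpgds (-1.33 ± 0.15) fell. Ptges, the inducible prostaglandin E synthase, rose from 0, 0 and 0.736 CPM to 16.3, 5.47 and 11.9 CPM (5.59 ± 0.84) and the receptor Ptger4 from 1.98, 1.62 and 0.123 CPM to 50.4, 25.9 and 63.7 CPM (5.17 ± 0.49). Of 17 purinergic genes 3 rose and 5 fell, against the same shares over all genes. The fallen ones besides P2ry12, P2ry13 and Gpr34 were Entpd1, the ectonucleotidase CD39 (-1.85 ± 0.19), and P2rx1 (-1.15 ± 0.31). The adenosine receptor genes Adora2a and Adora2b had no count in untreated libraries and were at 3.10, 0.781 and 2.45 CPM and 3.45, 0.488 and 1.77 CPM after LPS.

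Among 24 transcription factors of macrophage identity 6 rose and 7 fell, against 10.5% and 8.89% of all genes tested. Besides Sall1, Maf (-1.46 ± 0.24), Cebpa (-1.29 ± 0.19), Mef2c (-1.20 ± 0.15), Etv5 (-1.12 ± 0.26), Fli1 (-1.11 ± 0.18) and Batf3 (-1.72 ± 0.61) fell. Cebpb, a driver of inflammatory macrophage genes, rose from 71.8, 89.2 and 89.97 CPM to 696, 642 and 715 CPM (3.03 ± 0.17), with Cebpd (1.68 ± 0.16), Id2 (3.43 ± 0.32) and Runx1 (1.18 ± 0.16). In TGF-beta signalling 3 of 19 genes fell (Tgfb1, Tgfbr1 and Smad3 at -1.49 ± 0.26) and Tgfbi rose (1.63 ± 0.20), a share of calls near the 19.4% over all genes tested. Of 36 lysosomal genes 7 fell and 2 rose, also not far from that share, with a median of -0.49. Cathepsin D, Ctsd, fell from 11476, 12396 and 11960.4 CPM to 5154, 5455 and 4276 CPM (-1.27 ± 0.13), and Ctsc, which activates granule proteases, rose (1.499 ± 0.17).

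The list of disease-associated microglia, a state first defined around amyloid plaques, split as well. Of 18 genes tested 6 rose and 3 fell. Spp1, osteopontin, rose from 5.18, 3.52 and 4.42 CPM to 871, 787 and 614 CPM (7.44 ± 0.38), and Ch25h (8.61 ± 0.58), Cst7 (2.32 ± 0.19) and Cd63 (2.07 ± 0.15) rose, whereas Trem2, Cd9 (-1.56 ± 0.16) and Ctsd fell. Adhesion, integrin and costimulation genes rose in 9 of 28 cases and fell in 4. Vcam1 (3.37 ± 0.25), Cd40 (4.87 ± 0.70), Cd44 (5.08 ± 0.58) and the checkpoint ligand Cd274 (2.14 ± 0.26) rose. In sterol synthesis and LXR targets 5 of 24 rose and 1 fell. In heat shock and ER stress genes 4 of 22 rose, all of them chaperones such as Hspd1 (1.53 ± 0.19), and in the cell cycle list 2 of 24 rose and 3 fell. In the sterol, heat shock and cell cycle lists the share of calls was near the 19.4% over all genes tested. It was larger in the disease-associated and adhesion lists. Top2a, a proliferation gene, was at 6.62, 7.62 and 4.66 CPM and 1.90, 0.488 and 0.295 CPM (-2.78 ± 0.74), and the cell cycle inhibitor Cdkn1a was among the risen.

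The 8 monocyte markers summed to 6.21 to 11.0 CPM in untreated and 61.2 to 70.0 CPM in LPS MG, of which Fn1, fibronectin, made up 42.7 to 54.8 CPM after LPS, a ratio of 425 (exact binomial 95% interval 145 to 2065) to 3 counts. The monocyte gene Ly6c2 was at 0.403 to 0.999 CPM after LPS, and S100a4 did not exceed 1.24 CPM. Other members rose, Plac8 from 0.882, 0.667 and 2.09 CPM to 6.98, 6.44 and 6.48 CPM (2.46 ± 0.58), and the proteoglycan gene Vcan from 3 counts in all to 2.33, 3.03 and 2.16 CPM, a ratio of 23.1 (exact binomial 95% interval 7.62 to 114). Of the neutrophil markers Ly6g had no count in any of the 6 libraries, and the sum was 13.1 to 19.6 CPM in LPS MG. The neutrophil chemokine receptor gene Cxcr2 rose from 1 count in all to 9.66, 5.86 and 6.97 CPM, a ratio of 210.3 (exact binomial 95% interval 37.4 to 8339), and the collagenase gene Mmp8 rose from 2 counts in all to 1.72, 0.0976 and 2.85 CPM, a ratio of 21.6 (exact binomial 95% interval 5.68 to 184). Astrocyte markers summed to 257 to 295 CPM and 377 to 395 CPM, oligodendrocyte markers to 232 to 267 CPM and 134 to 228 CPM, and endothelial markers to 43.2 to 63.3 CPM and 24.7 to 33.0 CPM. Slc1a3, a glutamate transporter, made up 239 to 287 CPM and 356 to 386 CPM of the astrocyte sums. Neuron markers summed to 15.3 to 16.7 CPM and 26.3 to 32.4 CPM, and of these Meg3, a long noncoding RNA, rose from 5.07, 0.952 and 4.05 CPM to 11.9, 11.4 and 18.8 CPM (2.07 ± 0.55). Of 12 lymphocyte markers 8 had no count in untreated and 10 none in LPS libraries. The part of other cells in the response was not tested.

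The response of Ccr2 KO MG was set beside that of WT MG, which had 3 untreated and 3 CTL and LPS libraries of their own. The counts of WT and Ccr2 KO libraries were deposited as separate sets. The paper applied a batch correction to its WT and Ccr2 KO data, which was not done here. Differences in level or response between the genotypes therefore cannot be told apart from differences between the sets. The interaction of genotype and LPS, fitted over 18 MG libraries, called none of 12423 genes (0%), and 503 had an unadjusted p under 0.05 (DESeq2 called 1, S100a8). In that fit 2432 genes were called in Ccr2 KO and 1955 in WT MG, and 1591 in both, which is 65.4% of the former and 81.4% of the latter, all in the same direction. P2ry12 was at 9211, 9805 and 10424 CPM in untreated and 546, 1465 and 1129 CPM in LPS WT MG, and its response differed by -0.017 ± 0.33 (95% interval -0.70 to 0.66). Fkbp5 differed by 0.13 ± 0.15 (interval -0.18 to 0.44), so that a difference of 1 on the log2 scale lies outside both intervals. For inflammatory genes the intervals were wider. Ccl12 was at 95.9, 35.04 and 32.3 CPM and 1888, 61.5 and 985 CPM in WT MG, a difference between the responses of 0.61 ± 0.97 (interval -1.42 to 2.65). The WT library of mouse 4 stood far below the other LPS libraries for this gene. With any 1 of the 12 libraries left out, none was called and 416 to 912 genes had an unadjusted p under 0.05. Irf7 rose by 3.76 in Ccr2 KO and by 2.50 in WT MG (difference 1.27 ± 0.43, interval 0.37 to 2.16, unadjusted p = 0.00804), which did not pass the adjustment. Isg15 differed by 1.33 ± 0.59 (interval 0.11 to 2.56). In the interferon list 18 of 32 genes rose in WT MG in the fit over 18 MG libraries. The count of 26 that rose in Ccr2 KO MG comes from the separate fit without WT libraries. These counts therefore cannot be compared directly. No member's difference between the genotypes was called. The median SE of the interaction over the genes called in Ccr2 KO MG was 0.44.

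The same comparison with sdCAMs of the same Ccr2 KO mice called 887 of 12890 genes (6.88%), of which the change in MG lay above that in sdCAMs for 516 and below it for 371. Of the 516, 100 rose in MG and were not called in sdCAMs, 232 fell in sdCAMs and were not called in MG, and 17 rose in MG and fell in sdCAMs. Of the 371, 209 rose in sdCAMs without a call in MG and 47 fell in MG without one in sdCAMs. Levels and fold changes beside WT MG and sdCAMs come from those joint fits and can differ slightly from those above. Gpr65 had the smallest p. It was at 101, 117 and 90.04 CPM in untreated and 118, 108 and 97.7 CPM in LPS sdCAMs, so that the change was 5.11 in MG and 0.073 there, and the difference was 5.04 ± 0.26 (adjusted p = 1.08e-09). Ms4a6c was at 5.02 in MG and 1.69 in sdCAMs (difference 3.33 ± 0.20). Gatm, which makes the creatine precursor, was at 0.71 in MG and -2.46 in sdCAMs (difference 3.17 ± 0.17), Fcrl2 at -0.76 and -3.52 (2.77 ± 0.19) and Ctsc at 1.49 and -1.90 (3.38 ± 0.24).

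In the other direction Slamf9, an immune receptor, was at -0.48 in MG and 3.18 in sdCAMs (difference -3.66 ± 0.34, adjusted p = 1.32e-06). Hcls1, a substrate of lymphocyte kinases, was at -0.057 and 2.10 (-2.16 ± 0.20), Cnn2 at -1.03 and 3.25 (-4.28 ± 0.40), Sgms1 at -0.57 and 2.42 (-2.99 ± 0.25), and Maged2 at -2.49 and 0.86 (-3.35 ± 0.31). The lists differed in how their called members split. The CCR2 ligands Ccl12 (4.36 ± 0.31), Ccl2 (4.06 ± 0.45) and Ccl7 (5.57 ± 0.77) had the larger log2 change in MG. After LPS the mean levels of Ccl12 (2305 against 691 CPM) and Ccl2 (218 against 147 CPM) were higher in MG than in sdCAMs. Ccl7 went from a mean of 0.341 to 35.6 CPM in MG and from 210 to 445 CPM in sdCAMs, so that its level stayed lower in MG. All 5 interferon-stimulated genes called, of 32 tested, had the larger change in MG (Bst2, Ifi204, Ifitm3, Oasl2 and Rtp4), as did Tnf (2.31 ± 0.47). Of 23 genes of the NF-kappaB list the change in MG lay below that in sdCAMs for 7 and above it for 1. Tnfaip3 (-2.52 ± 0.33), Tnip1 (-2.43 ± 0.24) and Socs3 (-2.71 ± 0.37) were among the 7, and Bcl3 (2.34 ± 0.40) was the other. Il6 was at 0.53 in MG and 4.27 in sdCAMs (difference -3.74 ± 0.91). For 6 of 26 glycolysis genes the change in MG lay below that in sdCAMs, among them Hif1a (-2.19 ± 0.41) and Pkm (-1.42 ± 0.35), and for Slc2a3 above it (3.91 ± 0.96). For all 6 homeostatic genes called, of 21, the change in MG lay above that in sdCAMs, including Cx3cr1, at -1.25 in MG and -3.44 in sdCAMs. The same held for 9 of 36 lysosomal genes against 1 in the other direction. P2ry12 was at -3.30 in MG and -3.24 in sdCAMs, and the difference of -0.057 ± 0.23 was not called. The 21 homeostatic genes summed to 25579 to 28833 CPM in untreated and 6145 to 6862 CPM in LPS sdCAM libraries (without TMM). In MG the sums were 96080 to 97009 CPM and 39375 to 44243 CPM. The part of MG in the sdCAM libraries, and so in the sdCAM change of these genes, was not tested. With the mouse as a replicate block, 828 genes were called, 747 of them the same.

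**Figure D5:**
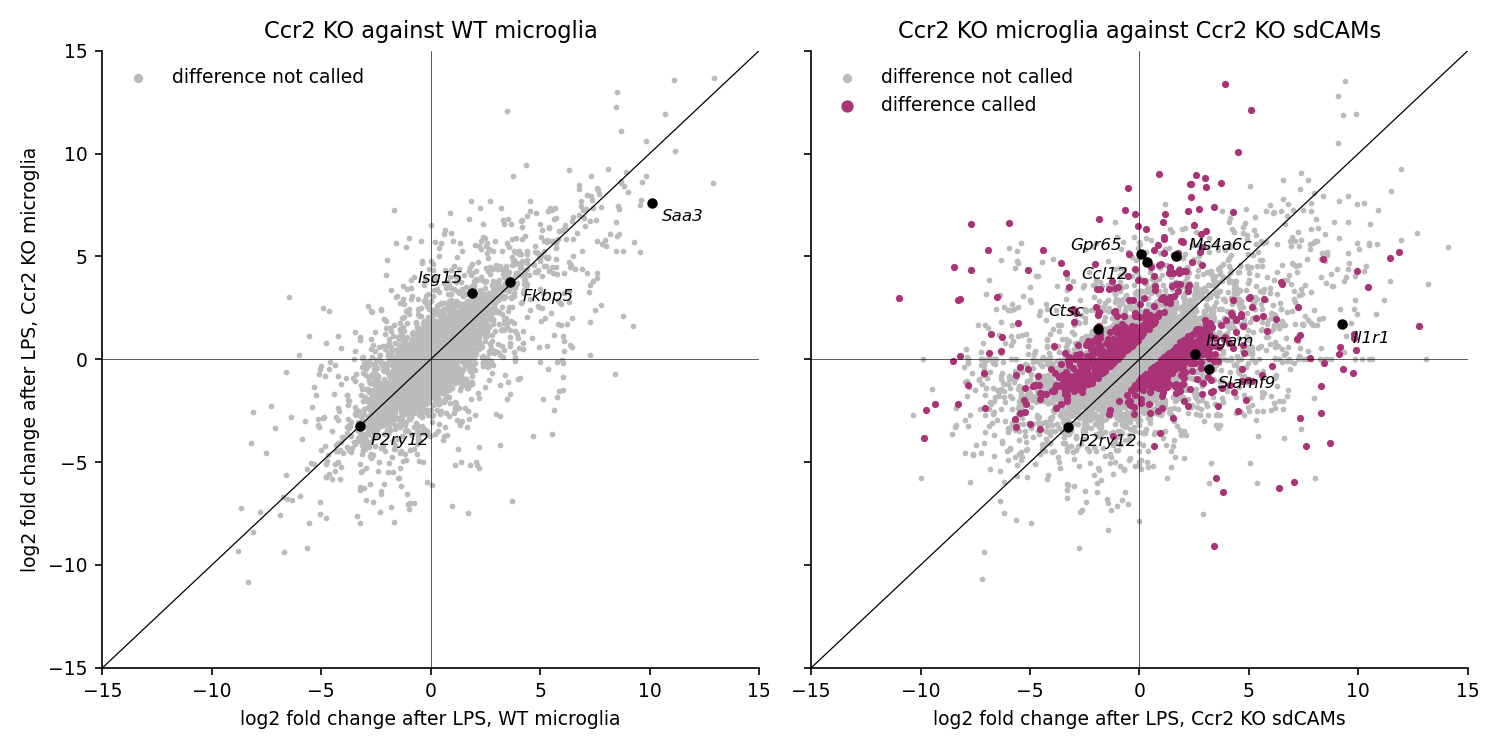
Log2 fold change after LPS in Ccr2 KO MG (y axis) against that in WT MG (left) and in Ccr2 KO sdCAMs (right), with 1 point per gene and the line of equal change. No difference is called on the left, and 887 genes are called on the right.

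Ccr2 KO MG that had been depleted with BLZ945 and had repopulated before LPS were compared with the never depleted LPS libraries, which are the same libraries as above. The test called 2 of 11558 genes (0.0173%), with 769 below 0.05 before adjustment, and DESeq2 called 27. None was called in a fit of the 6 libraries alone or without the BLZ945 library of mouse B3m, so that both calls below were lost there. The repopulated libraries varied more among themselves. Their correlations of log2 CPM were 0.935 to 0.942, against 0.958 to 0.963 among never depleted LPS libraries. Few calls are therefore not a measure of how alike the groups were. Apoe, the lipid carrier apolipoprotein E, was at 239, 248 and 312 CPM in never depleted and 602, 658 and 512 CPM in repopulated MG after LPS (1.15 ± 0.16, adjusted p = 0.0395), and at 399.6, 298 and 294 CPM in untreated MG. Ptger3, a prostaglandin E receptor, was at 2.67, 5.56 and 4.03 CPM and had no count in the 3 repopulated libraries, at least 12.1-fold lower (adjusted p = 0.011), and had itself fallen from 22.8, 16.6 and 15.7 CPM in untreated MG (-2.17 ± 0.41). P2ry12 was at 849, 1264 and 1233 CPM and Il12b at 47.9, 53.3 and 71.1 CPM in the repopulated libraries. Markers of choroid plexus and ependyma summed to 321, 98.4 and 7.28 CPM in the repopulated libraries against 0 to 6.39 CPM in never depleted LPS MG, and their part in these calls was not tested.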

How the data were processed

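MG were FACS-sorted from single mice and RNA was sequenced in bulk. The authors aligned single-end reads with STAR (2.7.11a) and deposited raw counts per gene from featureCounts (2.0.8), per the labels and methods, and mm10 or GRCm39 as the build is not settled by the sources used here. Columns were assigned by mouse and population in the library name, and 0 columns stayed unmatched. The 9 Ccr2 KO MG libraries (untreated, CTL and BLZ945) were fitted together with edgeR (4.0.16; filterByExpr, TMM, quasi-likelihood test, Benjamini-Hochberg adjustment) in R 4.3.3 with limma 3.58.1, and a gene was called at adjusted p under 0.05 and log2 fold change over 1 in size. Interactions with genotype and cell type were fitted over 18 libraries each. The steps were tested on simulated data. DESeq2 (1.42.0), other scalings, filters and limits, and leaving out each library were alternatives. MG and sdCAMs share mice, which pairs them (correlation of deviations -0.024 to 0.157). Genes named were Ccr2, the 10 higher and 10 lower calls with the smallest p, at a mean of at least 10 CPM and without overlap, up to 5 genes per direction of an interaction, and members of the gene lists by their role. Members and lists were chosen with earlier results of these data known. Each group holds 3 mice. The p-values of the fits rest on a spread estimated over all libraries of a fit, BLZ945 libraries included, and not on the compared groups alone. Reads were counted per symbol, and paralogs (Ms4a6, Ifitm, Gbp, Saa, H2, Mt and Ccl genes) and overlapping genes may share them. A count table of reporter mice was not used. Figures were drawn with Python 3.11.15, pandas 2.3.3 and matplotlib 3.10.9. The exact binomial intervals and the floors (3 counts per library) cover counting error only. The intervals of the genotype differences come from the SE of the joint fit.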

Additional observations from a re-analysis of the deposited data

Results flagged for a closer look

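The change after LPS differed between MG and sdCAMs of Ccr2 KO mice by the interaction term for 887 genes. The 5 genes named with a change in MG above that in sdCAMs differed by 5.04 for Gpr65, 3.17 for Gatm, 3.33 for Ms4a6c, 2.77 for Fcrl2 and 3.38 for Ctsc on the log2 scale. In the other direction the differences were -2.99 for Sgms1, -3.35 for Maged2, -3.66 for Slamf9, -2.16 for Hcls1 and -4.28 for Cnn2. Each passed the edgeR quasi-likelihood test after adjustment over 12890 genes.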

How the results depend on the processing

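The 2243 calls stayed within 1.5 times that number under DESeq2 (2392), other scalings (2238 to 2266), other filters (2213 to 2381), other sets of libraries (1829 to 2344), the letter of the mouse name as a covariate (2223) and, chosen after seeing the data, Xist counts as a covariate (2148). Without a fold limit 4036 genes passed (2240 higher, 1796 lower), and with a limit of 2 on the log2 scale 838 (479 higher, 359 lower), by construction. Of 193 named genes that were called, 124 were called under every alternative and 69 lost the call somewhere, 14 of them under an alternative other than the limit of 2. These 14 were Batf3, Stat3, Naip2, Cnn2, Mmp8 and H2-DMb2, each under 2 or more alternatives, and Csf3r (without untreated mouse 1m), Egr2 (without 5f), Etv5 and Fli1 (without V1m), and P2rx1, Plac8, Ptger3 and Top2a (in a fit of all 18 Ccr2 KO libraries). Leaving out 1 library gave 1982 to 2258 calls, 1095 to 1227 of them higher and 879 to 1032 lower. The genotype interaction called 1 gene with DESeq2 and 0 with each library left out. S100a8, the gene that DESeq2 called there, changed sign in the LPS comparison, from -0.77 to 9.11 without untreated mouse 1m, and was between -1.36 and that value with 1 library left out. Without mouse 1m the 10 neutrophil markers, S100a8 among them, summed to at most 0.241 CPM in untreated MG, so that 9.11 depends on the prior count. The BLZ945 comparison called 27 genes with DESeq2, 0 in a fit of only its 6 libraries and 0 to 12 with 1 library left out, and the cause was not tested. The cell type interaction called 828 genes with the replicate block of the mouse and 700 to 807 with 1 library left out. The LPS comparison within MG could not be paired because the LPS and untreated groups hold different mice. The main fit of the cell type interaction left out the pairing of MG and sdCAMs by mouse, which the block takes up. With 3 mice a group, differences in low counts are measured least well.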
